A study of Homo sapiens with 16 samples.

Results

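Collagen genes were followed across 4 cell lines of clear cell renal cell carcinoma (ccRCC) and the CRISPR guides introduced into them. They were taken as the protein-coding genes whose symbol is COL, a number, A and a number, which gave 44 genes (COL1A1 to COL28A1) among the 57773 genes counted. The choice used symbols only and no measured value. Of the 44 genes, 34 passed the filter on low counts (at least 60 counts summed over all libraries) and could be tested, while 10 did not.

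The study used CRISPR guides against KDM5C or KDM5D, a pair of histone demethylases encoded on the X and the Y chromosome, and sequenced the RNA of 16 libraries in bulk. The lines were A498, 769-P, CAKI-2 and 786-O, all established human ccRCC lines. Each line had 1 library with a non-targeting guide (sgCtrl) and 1 library for each of 2 KDM5C guides (sgKDM5C 4 and sgKDM5C 5, both directed at exon 8). 786-O and CAKI-2 also had 1 library for each of 2 KDM5D guides (sgKDM5D 2, directed at exon 2, and sgKDM5D 4, directed at exon 4). Guides and Cas9 came from a lentiviral MuLE vector, and infected cells were selected with puromycin and used as populations rather than as clones. All libraries, controls included, therefore carried Cas9. No control was replicated, so the 2 guides of a gene served as its replicates, and p-values measure the spread between guide libraries, which includes differences between guides. In bulk RNA, fewer cells making a transcript and less transcript per cell cannot be told apart.

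Collagens are trimers of 3 alpha chains wound into a triple helix, and each COL gene encodes 1 chain. Fibrillar collagens (types I, II, III, V, XI, XXIV and XXVII) build or regulate banded fibrils, whereas type IV chains form the network of basement membranes, on which renal tubular epithelium rests. Type VI forms beaded filaments, type VII anchoring fibrils, and types VIII and X hexagonal networks. The fibril-associated collagens with interrupted triple helices (FACIT) decorate fibrils, types XIII, XVII, XXIII and XXV span the plasma membrane, and the multiplexins XV and XVIII sit in basement membranes and carry proteoglycan chains. Chains need prolyl and lysyl hydroxylation and the chaperone HSP47 in the endoplasmic reticulum before secretion.

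The depth was 23398449 to 41617439 counts per library, and 3 counts, the upper limit that a count of 0 allows, corresponded to 0.0691 to 0.128 CPM (counts-per-million of the library total scaled by its TMM factor, the scale of all levels given here). This limit covers counting error only. KDM5C transcripts were at 26.2 to 57.3% of the control of the line in the 8 sgKDM5C libraries and at 91.5 to 106% in the 4 libraries labelled sgKDM5D. KDM5D transcripts were at 76.2 to 103% of control in the libraries labelled sgKDM5D and at 66.0 to 107% in the sgKDM5C libraries of the same lines, so the transcript does not check the sgKDM5D label. By root mean square log2 distance, libraries of 1 line lay 0.250 to 0.528 apart in 786-O, 0.273 to 0.432 in 769-P, 0.260 to 0.361 in A498 and 0.179 to 0.307 in CAKI-2. The library with the highest median distance was sgKDM5C 4 in 786-O (0.466), in 769-P (0.431) and in CAKI-2 (0.282), and in A498 it was the control (0.335). The KDM5C mean differences of collagen genes are also given without 786-O sgKDM5C 4 and without 769-P sgKDM5C 4. In each line, 8 or 9 of 10 ccRCC and renal epithelial markers exceeded 1 CPM in at least 1 library. The exceptions were CA9 in 786-O, CAKI-2 and 769-P (at most 0.0698 CPM), KRT19 in 769-P and EPCAM in A498. Of 8 fibroblast and pericyte markers, 2 to 4 exceeded 1 CPM, and their summed level was 17.3 to 111 CPM. THY1, DCN and LUM were below 1 CPM everywhere. MCAM reached 77.3 CPM in 786-O and 57.4 in 769-P, ACTA2 reached 53.4 in 769-P, and RGS5 was at 1.93 CPM or more in every line. PDGFRB was at 4.24 to 9.87 CPM in 769-P and 1.95 to 3.14 in CAKI-2, and PDGFRA at 1.06 to 1.45 in CAKI-2. Elsewhere these receptors were below 1 CPM. Endothelial markers summed to at most 3.39 CPM and leukocyte markers to at most 0.863 CPM.

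The 6 type IV genes lie as 3 head-to-head pairs. In each pair the genes point away from each other, and the segment between their transcription starts is a shared upstream region. These segments are shown because the results below turn on how the chains of each pair were expressed. They are printed on the plus strand of GRCh37, in lower case, with capitals marking the letters CCAAT (the CCAAT box), GGGCGG (the GC box) or TATAAA (the TATA box) on either strand, and the 3 motifs do not overlap.

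COL4A1 to COL4A2, chr13:110959505-110959604: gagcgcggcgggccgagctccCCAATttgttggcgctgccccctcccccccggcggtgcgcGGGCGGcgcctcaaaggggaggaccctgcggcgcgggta

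COL4A4 to COL4A3, chr2:228029170-228029339: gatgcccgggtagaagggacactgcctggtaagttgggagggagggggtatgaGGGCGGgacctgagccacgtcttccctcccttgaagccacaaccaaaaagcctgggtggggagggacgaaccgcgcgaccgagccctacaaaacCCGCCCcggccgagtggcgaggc

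COL4A6 to COL4A5, chrX:107682768-107683067: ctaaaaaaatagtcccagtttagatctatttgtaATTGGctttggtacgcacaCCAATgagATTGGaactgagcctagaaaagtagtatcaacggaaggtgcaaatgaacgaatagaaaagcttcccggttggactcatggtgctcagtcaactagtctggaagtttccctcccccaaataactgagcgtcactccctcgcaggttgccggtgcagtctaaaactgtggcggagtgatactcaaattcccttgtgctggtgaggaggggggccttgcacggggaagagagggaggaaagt

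The COL4A1 to COL4A2 segment of 100 bases had 78.0% G and C, where windows of that length upstream of 19874 genes had a median of 67.0%. It held 1 CCAAT box, present in 20.7% of those windows, 1 GC box, present in 45.6%, and no TATA box. The COL4A4 to COL4A3 segment of 170 bases had 65.9% G and C and held 2 GC boxes, present at least once in 54.4% of windows of that length, and no CCAAT box. The COL4A6 to COL4A5 segment, of which 300 bases of 340 are shown, had 48.3% G and C against a median of 62.0%, and held 3 CCAAT boxes, present at least once in 37.9% of windows, and no GC box. The annotation also contains a longer COL4A2 form that starts at chr13:110958159, inside COL4A1 on the opposite strand. Whether the counting used strand is not given in the sources used here, so reads in that overlap cannot be assigned with certainty.

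Across the 4 lines, most of the collagen transcript came from a few chains. 31 of the 44 genes reached 1 CPM in at least 1 library, 17 exceeded 10 CPM and 10 exceeded 100 CPM. 10 genes were at or above 1 CPM in every library of every line, and 16 were so in no line. This level was reached in all libraries of the line by 22 genes in CAKI-2 and in A498 alike, by 15 in 786-O and by 13 in 769-P. Collagen genes took 0.322 to 0.581% of all counts, with the highest share in 769-P sgKDM5C 5. The classes were unequally detected. All 6 type IV genes passed the filter, as did 9 of 10 FACIT genes and 7 of 11 fibrillar genes, but 3 of 5 type VI genes and 1 of 3 hexagonal network genes. Those left untested were COL1A2, COL2A1, COL3A1, COL6A5, COL6A6, COL8A2, COL10A1, COL11A1, COL21A1 and COL25A1, none of which exceeded 0.456 CPM in any library.

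**Figure D1:**
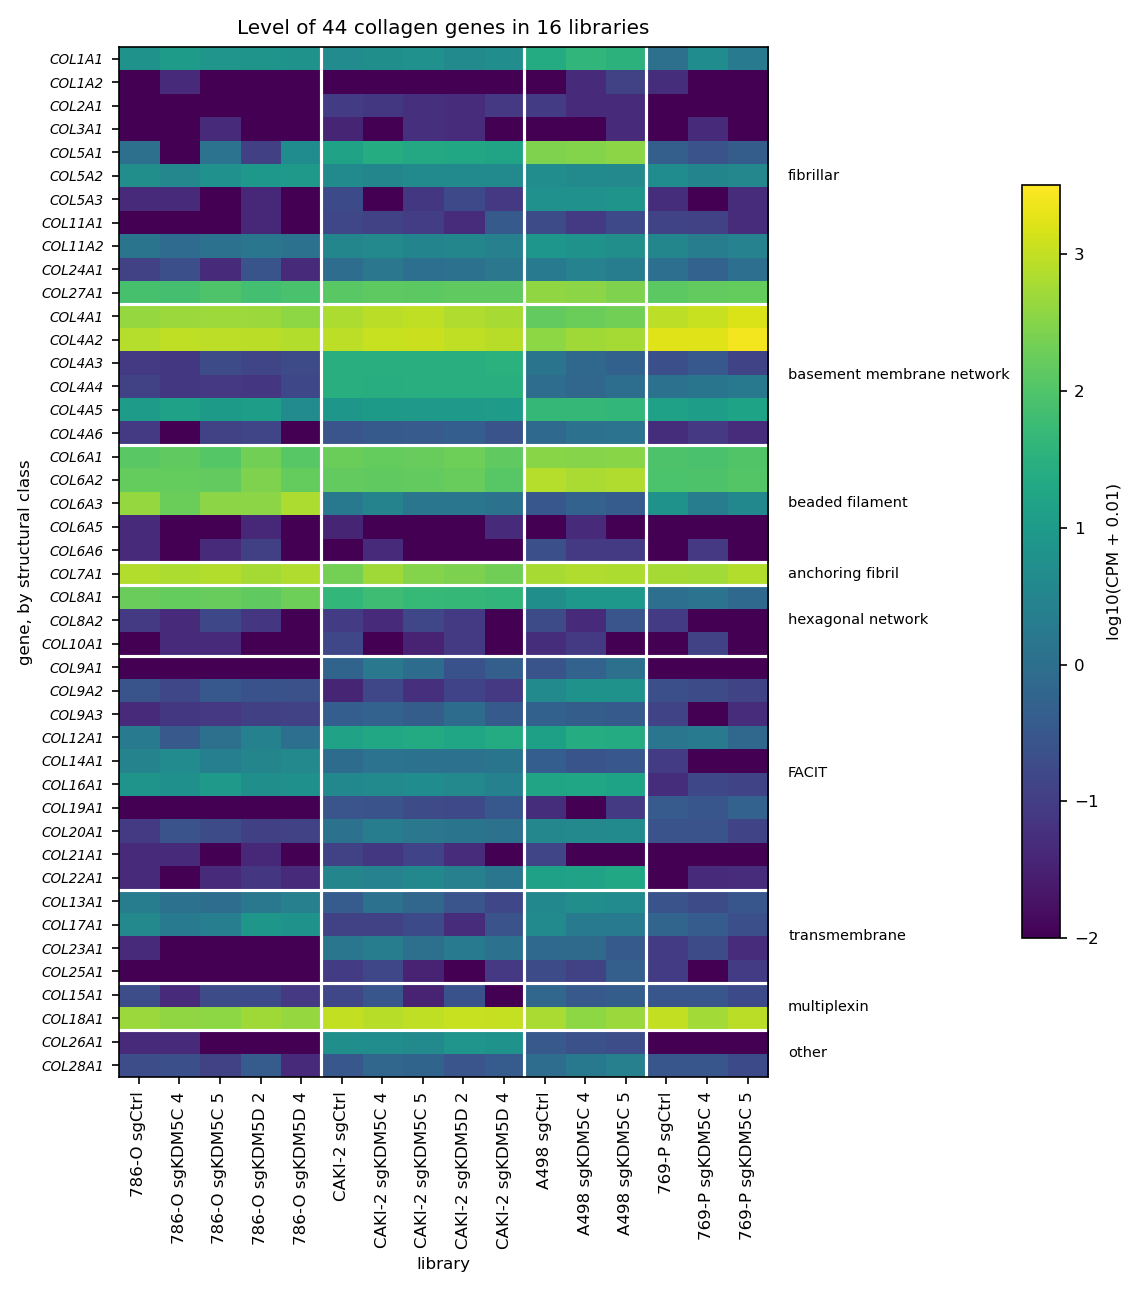
Level of the 44 collagen genes (rows, by structural class) in the 16 libraries (columns, by line and guide), as log10 of CPM plus 0.01; levels are not per length, so colours compare libraries within a row. COL4A1, COL4A2, COL7A1 and COL18A1 are high in all 4 lines, whereas COL6A3 is high in 786-O, COL4A3 and COL4A4 in CAKI-2, and COL5A1 in A498.

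To compare genes with each other, CPM were divided by the merged exon length of each gene in kilobases. On this scale the summed collagen level was highest in A498 at 416 ± 21.6 CPM per kb (mean ± SD, n = 3 libraries), followed by 769-P at 379 ± 67.2 (n = 3), CAKI-2 at 330 ± 18.8 (n = 5) and 786-O at 294 ± 16.9 (n = 5). The order of A498 and 769-P was within the spread of 769-P and turned over when the longest transcript was used as the length (640 and 747 CPM per kb). The basement membrane network provided 48.5 ± 5.87% of the summed level in 769-P, 32.3 ± 3.67% in CAKI-2, 25.5 ± 3.29% in 786-O and 10.01 ± 1.997% in A498. The longest-transcript length raised these shares to 65.4, 47.4, 39.2 and 17.2%, in the same order of lines.

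The other classes divided the lines differently. Type VI (beaded filament) chains were the largest class in A498, with 45.8% of the summed level per length, against 26.2% in 786-O, 17.6% in CAKI-2 and 9.19% in 769-P. The multiplexins, almost entirely COL18A1, took 35.2% in CAKI-2, 24.5% in 769-P, 17.6% in 786-O and 13.99% in A498. Type VII took 21.2% in 786-O, 14.5% in 769-P, 13.9% in A498 and 8.05% in CAKI-2. Fibrillar chains, which dominate connective tissue, provided 14.1% in A498 and 2.70 to 3.97% in the other lines. The most abundant single chain per length was COL7A1 in 786-O (62.0 CPM per kb), COL18A1 in CAKI-2 (115), COL6A2 in A498 (131) and COL4A2 in 769-P (102). With the longest transcript as the length, COL4A2 ranked first in 786-O and CAKI-2 as well, while A498 and 769-P kept the same leading chain. The class shares also depended on the length. With the longest transcript the basement membrane network was the largest class in 786-O (39.2%, type VI 24.1%) and in CAKI-2 (47.4%, multiplexins 26.2%).

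**Figure D2:**
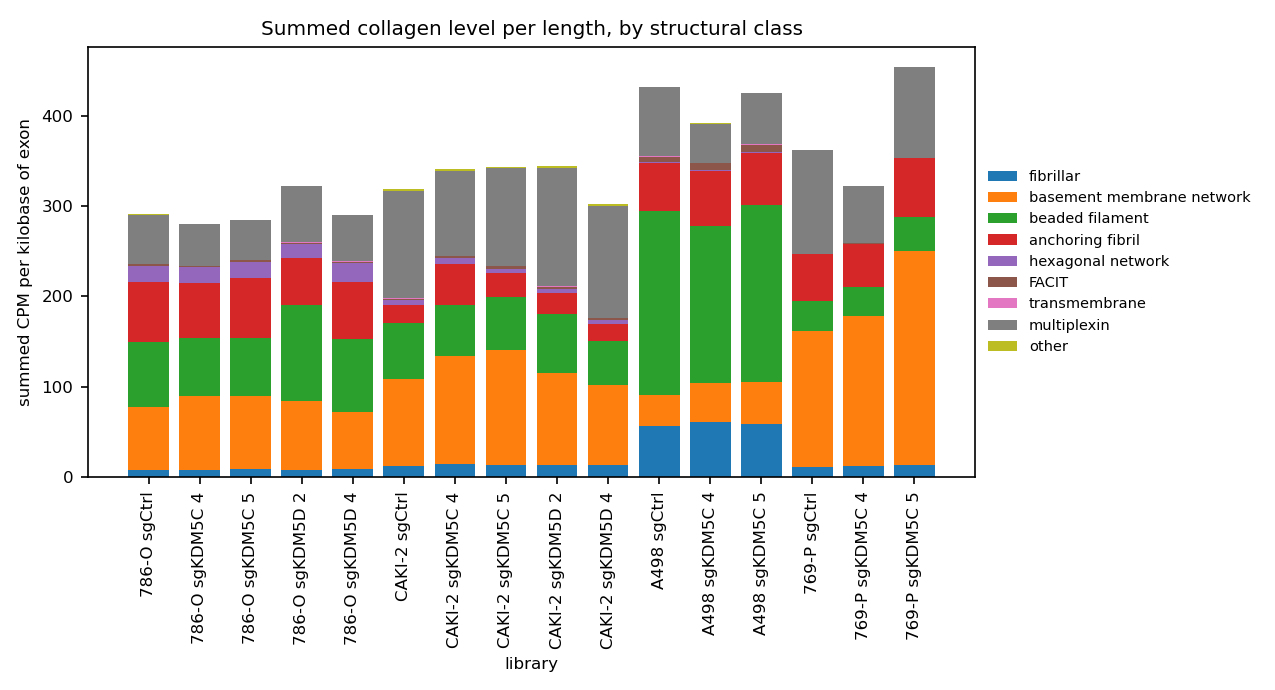
Summed collagen level of each library in CPM per kilobase of merged exon (bar height, axis from 0), divided by structural class (colours). The basement membrane network is the largest block in 769-P, where it averages 48.5% of the sum, and type VI (beaded filament) in A498, where it averages 45.8%.

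The lines were then compared with each other, each line against the mean of the other 3, over the control and sgKDM5C groups that all lines had. Of the 34 genes tested, 24 were called in 786-O at an adjusted p under 0.05 in edgeR's quasi-likelihood test, 7 higher and 17 lower, where 56.5% of all 20175 genes tested were called (29.3% higher and 27.2% lower). In CAKI-2, 24 collagens were called, 16 higher and 8 lower, beside 61.5% of all genes (36.6% and 25%). In A498, 29 were called, 23 higher and 6 lower, beside 69% of all genes (39.7% and 29.4%). In 769-P, 21 were called, 4 higher and 17 lower, beside 58.1% of all genes (30.9% and 27.3%). 32 of the 34 differed among the 4 lines in a single test, beside 90.5% of all genes, so that a call in this test did not set collagens apart from other genes. By direction, a larger share of collagens than of all genes was called higher in A498 and CAKI-2, and lower in 786-O and 769-P. The median difference of the tested collagens was 2.01 on the log2 scale in A498 (0.15 over all genes), 0.76 in CAKI-2 (0.11), -0.99 in 786-O (-0.07) and -1.21 in 769-P (-0.06). These values compare 4 cell lines, each represented by 1 set of cultures. The medians and the calls include genes whose fitted folds rest in part on libraries near the counting limit. They also include genes that would not have passed the filter without CAKI-2 (COL9A1, COL9A3, COL19A1, COL23A1 and COL26A1) or without A498 (COL5A3, COL9A2 and COL15A1). COL19A1 would not have passed without 769-P either.

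The pairs of type IV genes had different patterns over the lines. COL4A1 and COL4A2 were high in all 4, COL4A3 and COL4A4 in CAKI-2 alone, and COL4A5 was detected in all lines with little COL4A6. COL4A1 (chr13:110801310-110959504) and COL4A2 (chr13:110958159-111165556) encode the chains of the common basement membrane trimer. COL4A1 was at 917 to 1561 CPM in 769-P, 591 to 933 in CAKI-2, 367 to 493 in 786-O and 150 to 208 in A498. COL4A2 was at 1686 to 2506 CPM in 769-P, 812 to 1127 in CAKI-2, 725 to 942 in 786-O and 367 to 566 in A498. The A498 libraries were below all others for both genes, and the 769-P libraries were above all others for COL4A2, while for COL4A1 the lowest 769-P library overlapped the highest of CAKI-2. In edgeR, the log2 difference of 769-P from the other lines was 1.40 for COL4A2 (SE 0.109, adjusted p = 7.13e-08) and 1.49 for COL4A1 (SE 0.115, adjusted p = 6.1e-08). That of A498 was -1.38 for COL4A2 (SE 0.13, adjusted p = 2.83e-07) and -2.08 for COL4A1 (SE 0.145, adjusted p = 1.26e-08).

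The level of COL4A2 relative to COL4A1, per length, was 2.01 in A498 (range 1.87 to 2.09), 1.43 in 786-O (1.36 to 1.52), 1.28 in 769-P (1.21 to 1.40) and 0.991 in CAKI-2 (0.919 to 1.05). The ranges of CAKI-2 and A498 overlapped no other line, and those of 786-O and 769-P overlapped each other. The ratios depend on the length assumed: with the longest transcript they were 2.68, 1.90, 1.70 and 1.32. The order of the lines was the same with both lengths.

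COL4A3 and COL4A4 encode chains of the specialised trimer of glomerular and some tubular basement membranes. COL4A3 was at 29.3, 29.7, 29.8, 29.8 and 33.1 CPM in CAKI-2 (in the order control, KDM5C guides 4 and 5, KDM5D guides 2 and 4) and at 0.0683 to 1.28 CPM in the other lines. COL4A4 was at 28.3, 27, 28.7, 27.7 and 28.9 CPM in the same CAKI-2 libraries and at 0.0657 to 1.69 CPM elsewhere. Both genes were thus high in CAKI-2 alone, with no overlap, and their levels hardly varied with the guide. Per length, COL4A4 was at 0.965 ± 0.0403 of COL4A3 in CAKI-2 (n = 5), or 0.748 with the longest transcript as length. In 769-P, where both were low, the ratio was 8.21 (range 4.39 to 14.2), from 108 and 17 counts. Both were called higher in CAKI-2 in edgeR (adjusted p = 1.53e-12 for COL4A3 and 1.47e-12 for COL4A4). COL4A4 was lowest in 786-O (0.0657 to 0.147 CPM, 2 to 4 counts per library; adjusted p = 6.64e-09).

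COL4A5 and COL4A6, the X-linked pair, were unlike the other pairs in that 1 chain was nearly absent. COL4A5, the partner of the COL4A3 and COL4A4 chains, was at 42.9 to 47.1 CPM in A498 and 4.6 to 15.9 CPM in the other lines, a difference of 2.02 (SE 0.2) in edgeR. COL4A6 was at 0 to 1.22 CPM, highest in A498, and its level per length was 0.00499 to 0.0457 of that of COL4A5 over the line means. CAKI-2, the line with COL4A3 and COL4A4, had 8.30 to 10.4 CPM of COL4A5.

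**Figure D3:**
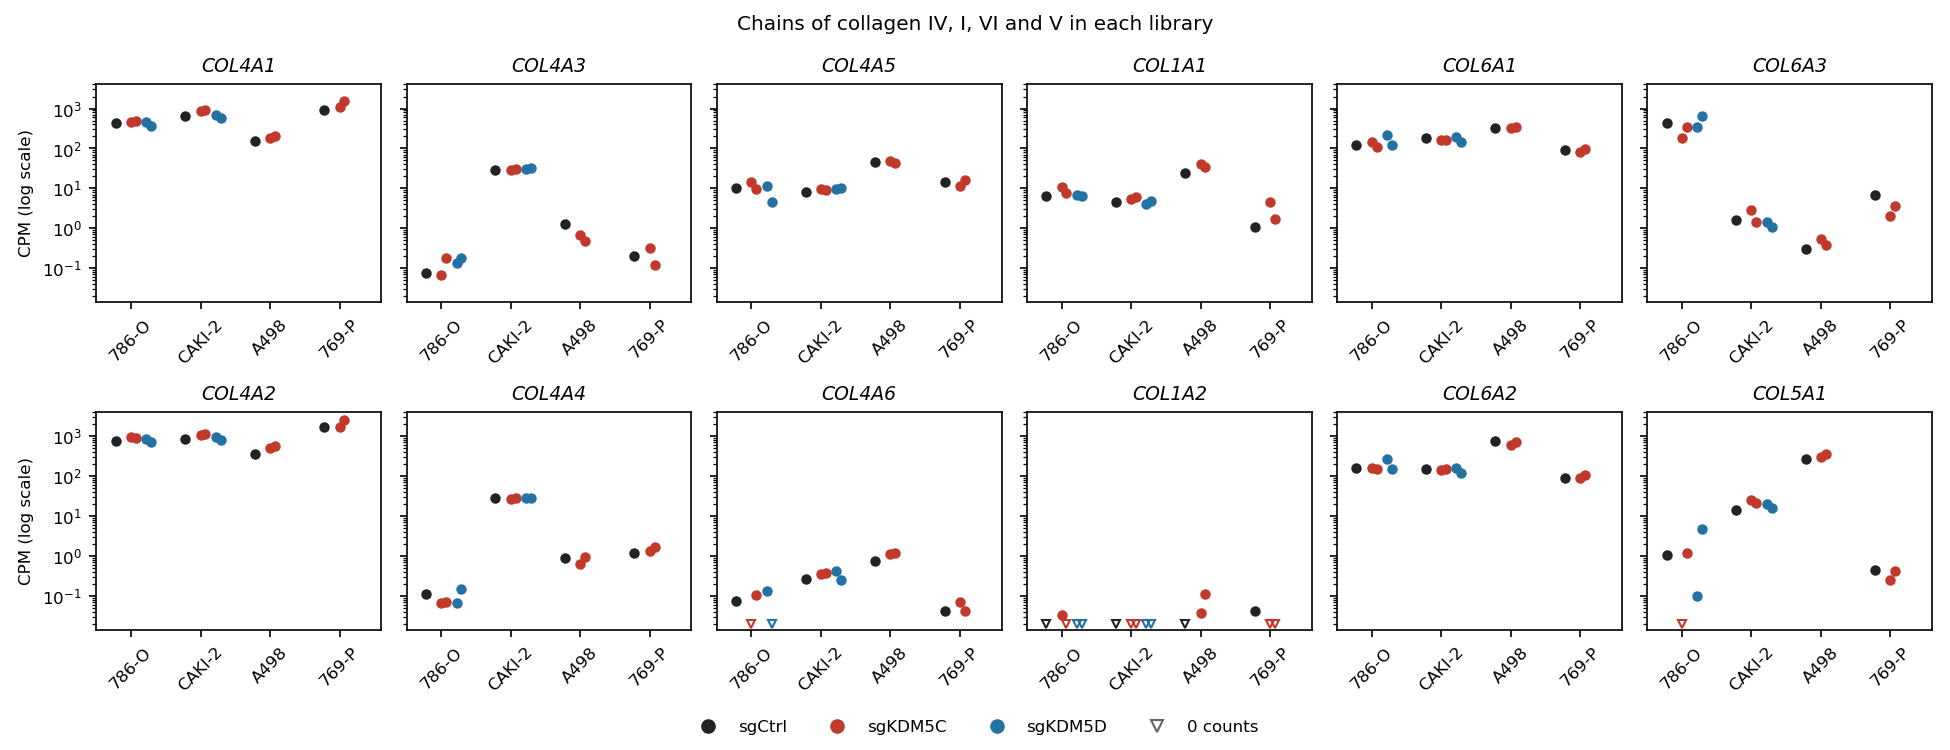
CPM (log axis) of type IV, I, VI and V chains in each library, grouped by line and coloured by guide; an open triangle at the bottom marks a library with 0 counts. COL4A3 and COL4A4 lie at 27 to 33.1 in CAKI-2 and below 2 elsewhere, and COL6A3 lies at 186 to 652 in 786-O and below 7 elsewhere.

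Type VI collagen is assembled from the chains of COL6A1, COL6A2 and COL6A3, and the third of these was far higher in 786-O than in any other line. COL6A1 ranged from 82.9 to 339 CPM and COL6A2 from 88.4 to 769.03 CPM over all libraries, with the highest values of both in A498 and the lowest in 769-P, neither of which overlapped another line. COL6A3 (chr2:238232646-238322971) was at 428, 186, 343, 349 and 652 CPM in 786-O (control, KDM5C guides 4 and 5, KDM5D guides 2 and 4). It was at 2.06 to 6.80 CPM in 769-P, 1.10 to 2.90 in CAKI-2 and 0.298 to 0.525 in A498. The 786-O libraries were thus above all others, and the A498 libraries, which had the most COL6A1 and COL6A2, were below all others. The edgeR differences were 7.86 for 786-O (SE 0.27, adjusted p = 3.05e-11) and -5.23 for A498 (SE 0.454). Per length, COL6A3 stood at 0.769 of COL6A1 in 786-O (range 0.334 to 1.41), 0.0116 in 769-P, 0.00261 in CAKI-2 and 0.000315 in A498. COL6A2 stood at 1.31, 1.08, 0.904 and 2.20 of COL6A1 in those lines. These ratios depend on the length as well: with the longest transcript, COL6A3 stood at 1.19 of COL6A1 in 786-O and COL6A2 at 1.06 in CAKI-2.

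Fibrillar transcript came mostly from COL27A1 and, in A498, also from COL5A1, rather than from type I or III. Per length, COL27A1 gave 5.84 of 7.89 CPM per kb of fibrillar transcript in 786-O, 9.64 of 13.1 in CAKI-2 and 10.5 of 11.8 in 769-P. In A498 it gave 24.1 and COL5A1 27.9 of 58.4 CPM per kb. With the longest transcript as the length, the order of these chains in A498 turned over (43.2 for COL27A1 and 36.9 for COL5A1). COL1A1 (chr17:48261462-48278993) had 4665 counts over the 16 libraries and COL1A2, its partner in the type I trimer, had 6, so that COL1A2 was at or near the counting limit in every library. COL1A1 was at 23.6 to 41.8 CPM in A498, 6.44 to 10.6 in 786-O, 3.98 to 6.15 in CAKI-2 and 1.07 to 4.66 in 769-P. The libraries of CAKI-2 and 769-P overlapped and those of the other lines did not, with A498 higher than the rest by 2.84 (SE 0.208, adjusted p = 2.06e-08, edgeR). COL5A1, the main chain of type V, which nucleates fibrils, was at 269, 309 and 357 CPM in A498 (sgCtrl, sgKDM5C 4 and sgKDM5C 5) and at 14.6 to 24.9 in CAKI-2, 0 to 4.67 in 786-O and 0.249 to 0.453 in 769-P. COL5A1 was called higher in A498 (adjusted p = 7.76e-09). COL5A3, another type V chain, was at 6.08 to 7.19 CPM in A498 and 0 to 0.164 elsewhere. A498 held 494 of its 514 counts, and without that line it would not have passed the filter, so its test between lines is not given.

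COL5A2, which pairs with COL5A1, had no such pattern: it lay at 3.09 to 9.63 CPM in all 4 lines. COL27A1, a fibrillar collagen of developing cartilage, was at 278 to 382 CPM in A498, 124 to 143 in CAKI-2, 127 to 160 in 769-P and 71.4 to 98.5 in 786-O. CAKI-2 and 769-P overlapped, A498 was above and 786-O below the others, and the 786-O difference was -1.14. COL24A1 was at 0.0359 to 0.263 CPM in 786-O and 0.533 to 2.70 in the other lines, with 1 to 8 counts per 786-O library. COL11A2 was also lower in all 786-O libraries (0.820 to 1.41 CPM) than in any other (1.99 to 7.70 CPM).

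Among the non-fibrillar classes, the hexagonal network was represented by COL8A1, a short-chain collagen of vessel walls and some basement membranes. COL8A1 ran from 145 to 191 CPM in 786-O and 41.2 to 60.7 in CAKI-2 down to 5.36 to 8.67 in A498 and 0.740 to 1.21 in 769-P, with no overlap between any lines. The edgeR difference was 4.6 for 786-O (SE 0.125, adjusted p = 3.12e-12) and -5.24 for 769-P (SE 0.208, adjusted p = 8.87e-11). Its usual partner COL8A2 reached at most 0.266 CPM and COL10A1 at most 0.137 CPM. COL7A1, the anchoring fibril chain that links basement membrane to stroma, was at 581 to 744 CPM in 786-O, 597 to 683 in A498, 534 to 724 in 769-P and 207 to 509 in CAKI-2. Only CAKI-2 stood apart, with a log2 difference of -1.12 (SE 0.169, adjusted p = 4.84e-05).

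COL18A1 (chr21:46825080-46933634), the multiplexin whose C-terminal fragment is endostatin, was at 794 to 1111 CPM in CAKI-2, 540 to 969 in 769-P, 374 to 529 in 786-O and 366 to 645 in A498. CAKI-2 overlapped 769-P and A498 overlapped 769-P and 786-O, while the other pairs of lines did not overlap. COL15A1, the other multiplexin, reached at most 0.638 CPM. The FACIT genes were at low levels. COL16A1 was at 15.6 to 16.9 CPM in A498, 5.39 to 9.23 in 786-O, 2.58 to 4.70 in CAKI-2 and 0.0412 to 0.142 in 769-P, and 769-P was called lower than the other lines (adjusted p = 3.42e-09). COL22A1 was at 13.8 to 18.6 CPM in A498, 1.41 to 3.73 in CAKI-2 and at most 0.0657 in 786-O and 769-P. COL14A1 ran from 2.30 to 4.58 CPM in 786-O and 0.874 to 1.38 in CAKI-2 down to 0.263 to 0.426 in A498 and 0 to 0.0824 in 769-P, with no overlap between lines. 786-O was called higher (adjusted p = 1.4e-07). COL9A2 was at 4.13 to 6.77 CPM in A498 and at most 0.323 in the other lines.

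Of the transmembrane collagens, COL17A1, a hemidesmosome component, was at 1.85 to 8.12 CPM in 786-O, 1.80 to 4.26 in A498, 0.206 to 0.618 in 769-P and 0.0390 to 0.247 in CAKI-2. COL13A1 was at 3.74 to 5.33 CPM in A498, 0.934 to 2.5 in 786-O, 0.141 to 1.19 in CAKI-2 and 0.178 to 0.288 in 769-P. COL23A1 was at 1.08 to 1.99 CPM in CAKI-2 and below 1 CPM elsewhere, and in 786-O it had counts in the control library alone. CAKI-2 held 240 of the 297 counts of COL23A1. Without that line it would not have passed the filter, so its test between lines is not given. COL26A1 was at 4.33 to 7.21 CPM in CAKI-2 and at most 0.340 elsewhere, and COL28A1 reached 0.936 to 2.47 CPM in A498 and at most 0.628 in the other lines. Fitted folds between lines of COL4A3, COL4A4, COL5A1, COL5A3, COL14A1, COL16A1, COL22A1, COL23A1, COL24A1 and COL26A1 rest in part on libraries at or near the counting limit and are not given as sizes.

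Counted by libraries that did not overlap, 786-O lay above all other lines for COL6A3, COL8A1 and COL14A1 (8.67% of all genes tested did so) and below them for COL4A4, COL11A2, COL23A1, COL24A1 and COL27A1 (9.35%). CAKI-2 lay above for COL4A3, COL4A4, COL23A1 and COL26A1 (14.1%) and below for COL7A1 (8.37%). A498 lay above for 17 collagen genes (19.8%) and below for COL4A1, COL4A2 and COL6A3 (15.9%). 769-P lay above for COL4A2 alone (11.4%) and below for COL6A1, COL6A2, COL8A1, COL14A1 and COL16A1 (10.3%). Of the genes counted as above, COL23A1 and COL26A1 passed the filter on low counts only through CAKI-2, and COL5A3, COL9A2 and COL15A1 only through A498. For these genes, lying above the other lines was partly built in by the filter. COL23A1, which lay below the others in 786-O, was likewise tested only because of its CAKI-2 counts. The shares of all genes were counted without removing such genes.

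**Figure D4:**
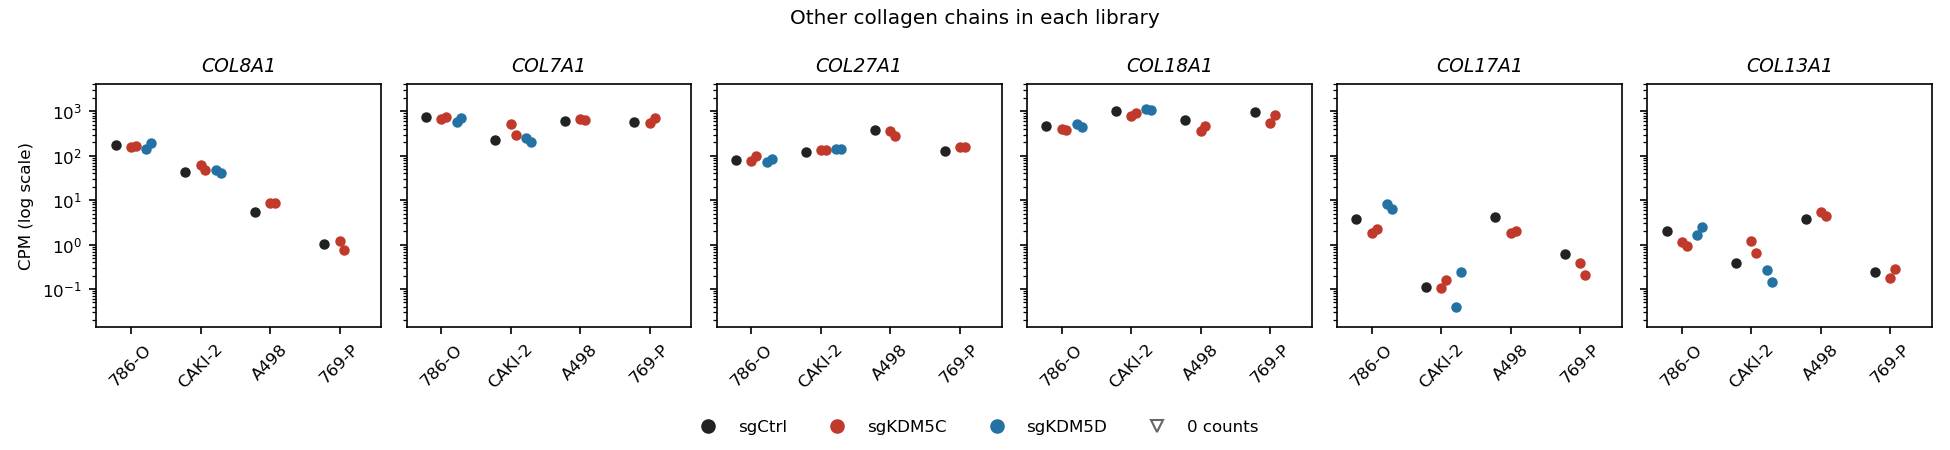
CPM of COL8A1, COL7A1, COL27A1, COL18A1, COL17A1 and COL13A1 in each library by line and guide. COL8A1 separates all 4 lines (145 to 191 in 786-O down to 0.740 to 1.21 in 769-P), while COL18A1 overlaps between several lines and is lower in every sgKDM5C library than in the control of its line.

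The question of the KDM5C comparison was whether loss of KDM5C changed collagen transcripts. In edgeR no collagen gene passed an adjusted p of 0.05 in any of the 4 lines or in the mean over lines, and DESeq2 also called 0 in each of these. In simulated counts, edgeR recovered 31.4% of 2-fold changes in 786-O and in 769-P, 40.2% in CAKI-2 and 44.1% in A498. It recovered 81.4% in the mean over lines. A gene that was not called in a single line may therefore still have changed. Of all genes tested, edgeR called 0.00991% in the mean over lines and the same share in 786-O, 0.00496% in A498 as in 769-P, and 0% in CAKI-2, so that hardly any gene of any kind was called. At an unadjusted p under 0.05 there were 5 collagen genes in the mean over lines (5.18% of all genes), 5 in A498 (5.55%), 4 in 769-P (3.32%), 2 in CAKI-2 (1.94%) and 2 in 786-O (2.92%). The median log2 difference over the tested collagens was -0.03 in the mean over lines, beside 0.04 over all genes. The values that follow are therefore descriptions of differences that did not pass correction over all genes. The count depended on the filter: with no filter on low counts (40196 genes), edgeR called COL1A1, COL4A1, COL4A2 and COL18A1 in the mean over lines (adjusted p = 0.0031, 0.0113, 0.0113 and 0.00463), where it called 113 of all genes, or 0.281%.

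COL4A1, COL4A2 and COL1A1 were higher in all 8 sgKDM5C libraries than in the control of the same line, which 1.24% of all genes were. Both guide libraries of a line share 1 control, so the 8 comparisons are not independent, here and for COL18A1 below. COL4A1 was at 432 CPM in the 786-O control and 471 and 493 with guides 4 and 5, and the CAKI-2 libraries in this order had 665, 854 and 933 CPM. The values were 150, 188 and 208 CPM for A498 and 917, 1094 and 1561 CPM for 769-P. Every guide library exceeded its control, at 109 to 170% of the control level.

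COL4A2, in the order control, guide 4 and guide 5, was at 1686, 1733 and 2506 CPM in 769-P and 878, 1082 and 1127 in CAKI-2. The 786-O libraries had 773, 942 and 896 CPM and the A498 libraries 367, 516 and 566 CPM. It was at 103 to 154% of control. The mean differences over lines were 0.38 for COL4A1 (SE 0.109, adjusted p = 0.836, edgeR) and 0.37 for COL4A2 (SE 0.103, adjusted p = 0.836). Without 769-P sgKDM5C 4 they were 0.44 and 0.43, and without 786-O sgKDM5C 4 they were 0.39 and 0.36. The genes share an upstream segment, printed above, and overlap in annotation, so they are not independent observations.

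COL1A1, in the same order, was at 23.6, 41.8 and 33.8 CPM in A498 and 6.54, 10.6 and 7.54 in 786-O. The CAKI-2 libraries had 4.48, 5.41 and 6.15 CPM and those of 769-P 1.07, 4.66 and 1.73. The guide libraries were at 115 to 435% of control, the highest being 769-P sgKDM5C 4. The mean difference over lines was 0.78 (SE 0.215, adjusted p = 0.836, edgeR), and 0.55 without 769-P sgKDM5C 4 or 0.71 without 786-O sgKDM5C 4. In 769-P alone it was 1.59 (SE 0.514, adjusted p = 1), falling to 0.71 without guide 4, so that 1 library provided most of it. COL1A2 stayed at the counting limit in all of these libraries.

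COL18A1 was lower in all 8 sgKDM5C libraries than in the control, which 1.67% of all genes were. Control, guide 4 and guide 5 had 1009, 794 and 919 CPM in CAKI-2 and 462, 390 and 374 in 786-O. The 769-P libraries had 969, 540 and 846 CPM and the A498 libraries 645, 366 and 476. The libraries were at 55.8 to 91.1% of control. The mean difference was -0.40 (SE 0.118, adjusted p = 0.839, edgeR), and -0.33 without 769-P sgKDM5C 4 or -0.41 without 786-O sgKDM5C 4.

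**Figure D5:**
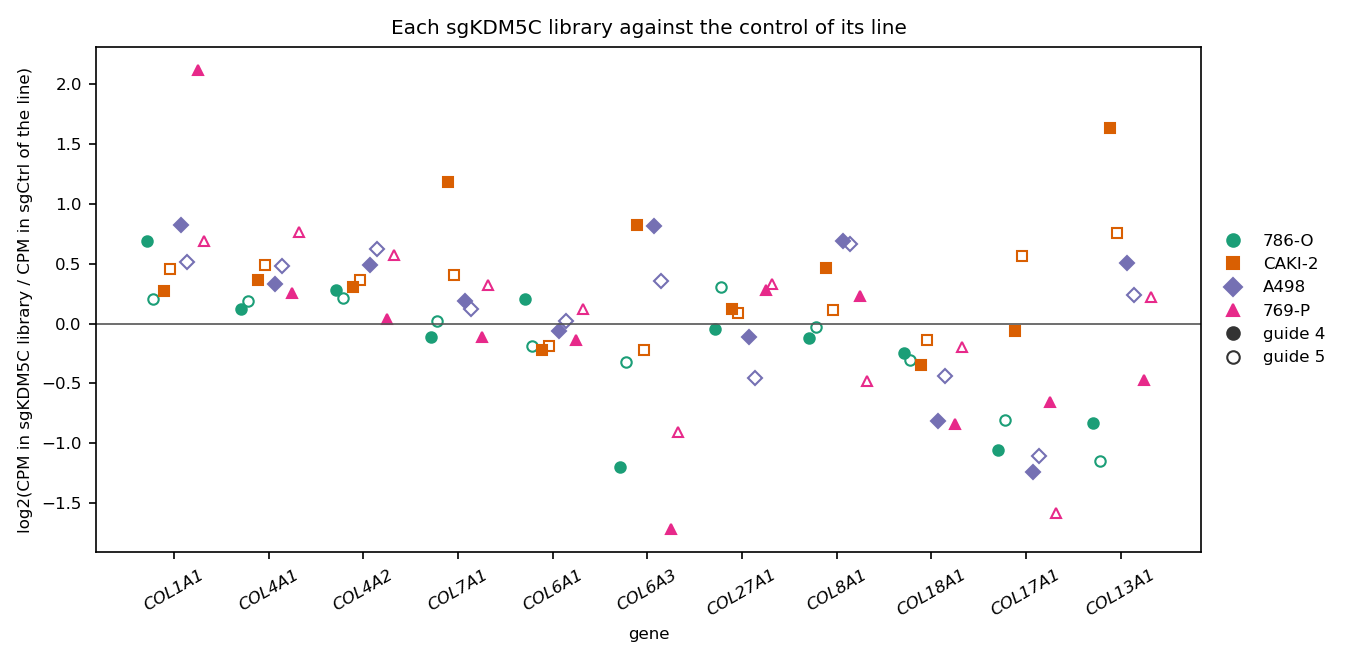
Log2 ratio of the CPM of each sgKDM5C library to the control of its line for 11 collagen genes (filled symbols guide 4, open symbols guide 5, colours by line; 0 means equal to control). All 8 points of COL1A1, COL4A1 and COL4A2 lie above 0 and all 8 of COL18A1 below; points of COL13A1 and COL17A1 lie on both sides.

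COL17A1 was at 3.84, 1.85 and 2.19 CPM in 786-O, 4.26, 1.80 and 1.98 in A498, 0.618, 0.391 and 0.206 in 769-P and 0.109, 0.105 and 0.161 in CAKI-2, in the order control, guide 4 and guide 5. It was below control in 7 of 8 guide libraries, the exception being CAKI-2 sgKDM5C 5, at a level near the counting limit. The differences were -0.93 in 786-O (adjusted p = 1, edgeR), -1.17 in A498 (adjusted p = 0.853) and -0.70 in the mean (SE 0.323, adjusted p = 0.901). Fitted on the A498 libraries alone, it passed there (adjusted p = 0.0139), as did COL1A1, COL18A1 and COL12A1, a FACIT gene at 13.5, 25.6 and 24.7 CPM, beside 2.3% of all genes in that fit. That fit set 1 control against 2 guide libraries, and the control lay farther from them (0.308 and 0.361) than they did from each other (0.260), with 1 residual degree of freedom. The mean was -0.83 without 769-P sgKDM5C 4 and -0.67 without 786-O sgKDM5C 4.

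Other genes differed within single lines. COL7A1 in CAKI-2 was at 223 CPM in the control and 509 and 297 in sgKDM5C 4 and 5, a difference of 0.85 (SE 0.28, adjusted p = 1, edgeR). The guide libraries were far from each other. COL6A3 in 769-P was at 6.80, 2.06 and 3.62 CPM (-1.27, SE 0.484, adjusted p = 1, and -0.89 without guide 4). COL8A1 in A498 was at 5.36, 8.67 and 8.52 CPM (0.68, SE 0.254, adjusted p = 0.88).

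COL13A1, which encodes a transmembrane collagen of cell junctions, had opposite differences in different lines. It was at 2.07 CPM in the 786-O control and 1.16 and 0.934 in the guide libraries (-0.98, SE 0.446, adjusted p = 1, edgeR, and -1.14 without sgKDM5C 4), but at 0.382, 1.19 and 0.645 CPM in CAKI-2 (1.21, SE 0.546, adjusted p = 1, and 0.77 without CAKI-2 sgKDM5C 4). In A498 it was at 3.74, 5.33 and 4.41 CPM and in 769-P at 0.247, 0.178 and 0.288 CPM. The test in edgeR that the line effects were equal gave adjusted p = 1. COL13A1 was the 1 collagen gene with an unadjusted p under 0.05 in that test (2.29% of all genes), and none passed after adjustment with edgeR or DESeq2 (0% of all genes with edgeR).

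In the libraries labelled sgKDM5D, which shared their controls with the sgKDM5C comparison, no collagen gene was called in 786-O (0.0149% of all genes), in CAKI-2 (0%) or in the mean of both (0%), by edgeR or DESeq2. At an unadjusted p under 0.05 there were 2 genes in 786-O (1.82% of all genes), 0 in CAKI-2 (0.773%) and 0 in the mean (1.5%). COL17A1 in 786-O was at 3.84 CPM in the control and 8.12 and 6.36 in sgKDM5D 2 and 4 (0.92, SE 0.404, adjusted p = 1, edgeR). COL5A2 in 786-O was at 5.12 CPM in the control and 8.61 and 9.63 in the guide libraries (0.83, SE 0.322, adjusted p = 1). COL14A1 was higher than control in all 4 sgKDM5D libraries, as 7.43% of all genes were, at 2.93 CPM against 3.19 and 3.82 in 786-O and 0.874 against 1.13 and 1.38 in CAKI-2. COL4A3 was also above control in all 4 and COL5A3 below it in all 4 (8.61% of all genes), but both had at most 5 counts in each of these 786-O libraries, so no direction is read from them.

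The sgKDM5C and sgKDM5D libraries were also compared directly, which uses no control. In 786-O, COL17A1 was at 1.85 and 2.19 CPM in sgKDM5C 4 and 5 and at 8.12 and 6.36 in sgKDM5D 2 and 4, without overlap. The difference was -1.84 (SE 0.334, adjusted p = 0.0828, edgeR), past the threshold with DESeq2 (adjusted p = 0.0452, with 0.273% of all genes called), and not with edgeR, which called 0 collagens and 0.0644% of all genes. It was the 1 collagen gene that DESeq2 called in any comparison of genotypes. In edgeR it passed without sgKDM5C 5 (-1.97, adjusted p = 0.0248, with 1.54% of all genes called) and without sgKDM5D 4 (-1.998, adjusted p = 0.041, with 0.42%), and missed the threshold without sgKDM5C 4 (-1.71, adjusted p = 0.152) and without sgKDM5D 2 (-1.67, adjusted p = 0.61). COL5A2 was at 3.52 and 5.93 CPM against 8.61 and 9.63 (-0.95, SE 0.255, adjusted p = 0.456). At an unadjusted p under 0.05 there were 5 collagen genes in 786-O, beside 4.78% of all genes.

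In CAKI-2, COL13A1 was at 1.19 and 0.645 CPM in sgKDM5C 4 and 5 and 0.273 and 0.141 in sgKDM5D 2 and 4 (2.10, SE 0.509, adjusted p = 0.53, edgeR). COL7A1 was at 509 and 297 CPM against 254 and 207 (0.80, SE 0.222, adjusted p = 0.771). COL9A1, a FACIT gene of cartilage, was at 1.57 and 0.875 CPM against 0.234 and 0.459 (1.77, SE 0.558, adjusted p = 1). No collagen gene was called by edgeR or DESeq2 (0% of all genes with edgeR), and 5 had an unadjusted p under 0.05 (3.38%). Over both lines, edgeR and DESeq2 called 0 collagens (0.0397% of all genes with edgeR), and 7 had an unadjusted p under 0.05 (4.12%). COL7A1 had a mean difference of 0.47 (SE 0.156, adjusted p = 0.876), which was 0.26 without CAKI-2 sgKDM5C 4. COL17A1 had -0.97 (SE 0.411, adjusted p = 1), which was -0.06 without CAKI-2 sgKDM5D 4, so that its mean rested on that library, in a line where the gene was near the counting limit.

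Comparing KDM5C guide 4 with guide 5 within lines, edgeR and DESeq2 called no collagen gene (0% of all genes with edgeR), and the smallest adjusted p was 0.627. 4 genes had an unadjusted p under 0.05 (7.75% of all genes). COL1A1 was higher with guide 4 by 0.47 (adjusted p = 0.644) and COL18A1 was lower with guide 4 (-0.29, adjusted p = 0.637). Without the 769-P libraries these were 0.22 and -0.17, so that they rested largely on that line. COL4A1 had a difference of -0.22. The difference from control of COL1A1 and COL18A1 was thus larger with guide 4 than with guide 5 on average, and that of COL4A1 larger with guide 5, without passing adjustment.

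The enzymes and partners that act on collagen chains were examined as 9 lists of genes: prolyl hydroxylation (10 tested), lysyl hydroxylation and glycosylation (6), chaperones and export (12), procollagen processing (8), cross-linking (6), receptors (10 of 11 genes), small leucine-rich proteoglycans and other fibril partners (5 of 13), basement membrane partners (10) and the TGF-beta axis (13). None of their members was called in any genotype comparison in edgeR. In the KDM5C mean over lines, the members with the smallest p were SERPINH1 among chaperones, which encodes HSP47, at 0.45 (SE 0.122, adjusted p = 0.836), NID2 among basement membrane partners, which encodes nidogen-2, at 0.62 (SE 0.157, adjusted p = 0.731), and SMAD7, an inhibitor of TGF-beta signalling, at 0.28 (adjusted p = 0.847). At an unadjusted p under 0.05 there were 2 of 12 chaperone genes, 2 of 8 procollagen processing genes, 4 of 13 TGF-beta genes, 1 of 6 cross-linking genes, 1 of 10 receptors and 1 of 10 basement membrane partners, all higher, and 0 of 10 prolyl hydroxylation genes, 0 of 6 lysyl hydroxylation genes and 0 of 5 fibril partners, beside 5.18% of all genes. SERPINH1 differed between sgKDM5C and sgKDM5D libraries by 0.66 over both lines (adjusted p = 0.247).

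Between lines, most genes of the 2 hydroxylation lists were lower in 769-P, the line with the most COL4A1 and COL4A2 transcript, than in the mean of the other 3 lines. All 6 lysyl hydroxylation and glycosylation genes and 7 of 10 prolyl hydroxylation genes were lower in 769-P (27.3% of all genes were), with 0 and 1 higher (30.9%). The other lists were more divided there, with 3 higher and 5 lower of 12 chaperones, 2 and 4 of 8 processing genes, 1 and 5 of 6 cross-linking genes, 2 and 5 of 10 receptors, 1 and 3 of 5 fibril partners, 4 and 5 of 10 basement membrane partners and 4 and 5 of 13 TGF-beta genes. In 786-O, 8 of 10 prolyl hydroxylation genes were higher (29.3% of all genes) and 0 lower (27.2%). The genes named next were chosen after their values were seen. PLOD2, a lysyl hydroxylase, was at 22.8 to 26.3 CPM in 769-P and 238 to 328 in the other lines (-3.47, SE 0.123, adjusted p = 3.19e-11, edgeR). FKBP10, which assists lysyl hydroxylation of collagen, was at 0.206 to 0.498 CPM in 769-P and 434 to 866 elsewhere (-11.13, SE 0.273, adjusted p = 1.71e-12). P3H3, a prolyl 3-hydroxylase family member, was at 0 to 0.0356 CPM in 769-P and 27.7 to 206 elsewhere.

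Several partners of the type IV network differed as strongly. PXDN, the peroxidase that forms the sulfilimine cross-links of collagen IV, had 0 counts in all 3 libraries of 769-P, at least 11.4-fold lower than the lowest library of the other lines, taking 3 counts per library as the limit. It was at 823 to 1149 CPM in A498, 405 to 491 in CAKI-2 and 1.41 to 75.5 in 786-O. SPARC, a collagen-binding matricellular protein, was at 0.288 to 0.889 CPM in 769-P and 174 to 1027 in the other lines (-9.40, SE 0.307, adjusted p = 1.49e-11, edgeR). NID1, the nidogen that joins laminin to collagen IV, was at 428 to 497.7 CPM in 769-P and 2.90 to 116 elsewhere (4.16, SE 0.171, adjusted p = 1.23e-10). SERPINH1 was at 9.37 to 23.6 CPM in CAKI-2 and 139 to 317 in the other lines (-3.72, SE 0.185, adjusted p = 4.48e-10).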

How the data were processed

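RNA of 16 libraries was sequenced by the authors (TruSeq Stranded, paired-end, NovaSeq). The deposited values are raw counts per Ensembl gene. The submitters' processing notes name Trimmomatic 0.38, STAR 2.5.2b and GRCh37. The read counter, annotation release and use of strand are not given in the sources used here. The header named 16 libraries over 17 fields, so each name was read as the column to its right. Symbols, exon lengths and coordinates came from GENCODE v44lift37, which matched 55538 of 57773 genes.

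Genes with at least 60 counts in all (20175) were tested in R 4.3.3 with edgeR 4.0.16 (TMM factors 0.935 to 1.07, quasi-likelihood F-tests, Benjamini-Hochberg adjustment over all genes tested). The fit had 1 mean for each of 10 groups, 6 residual and 7.92 prior degrees of freedom, and a common dispersion of 0.0231. Guides were compared in an additive fit with line. DESeq2 1.42.0, other filters and scalings, control libraries alone, single-line fits, a replicate block and omission of each library were alternatives. Scripts were tested on simulated data. Log2 differences are the fitted values.

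Named genes were up to 3 of the most abundant per class, the largest differences per comparison and chain partners. COL5A2, COL11A2 and COL12A1 were named outside these rules, as were some further differences of the named genes. The collagen genes, pathway lists and tests were chosen with earlier results of these data known.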

Additional observations from a re-analysis of the deposited data

Results flagged for a closer look

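The difference between sgKDM5C and control for COL13A1 was not the same in the 4 lines by an F-test of equal effects in edgeR (unadjusted p of 0.0443, adjusted p = 1 over all genes). It was below control in both guide libraries of 786-O and above control in both guide libraries of CAKI-2 and A498, at levels of at most 5.33 CPM. The result fails the correction for all genes tested.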

How the results depend on the processing

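No named difference reversed under any alternative run. Collagen genes called in genotype comparisons numbered 0 in edgeR and moved as follows. With no filter on low counts there was 1 for KDM5C in CAKI-2 (COL7A1), 2 in 769-P (COL1A1 and COL6A3), 4 in the mean over lines and 1 for the difference between lines (COL6A3). For sgKDM5C against sgKDM5D there were then 4 in 786-O, 2 in CAKI-2 and 2 in their mean. This alternative also raised the calls over all genes, from 2 to 113 in the KDM5C mean, and the cause was not tested. Fitting the A498 libraries alone called 4 (COL1A1, COL12A1, COL17A1 and COL18A1). DESeq2 called 1 in 786-O for sgKDM5C against sgKDM5D (COL17A1), and leaving out single libraries gave 0 to 2 there, with 2 without 786-O sgKDM5C 5 and 1 without 786-O sgKDM5D 4. The other genotype and guide counts stayed at 0 whichever library was left out. Line counts ran from 25 to 30 for A498, 18 to 30 for 769-P, 19 to 28 for 786-O, 22 to 26 for CAKI-2 and 27 to 33 for any line when a library or a line was left out. Where a group kept 1 library, it was assumed to vary like the others. With the longest transcript as length, the basement membrane share was 65.4% in 769-P, 47.4% in CAKI-2, 39.2% in 786-O and 17.2% in A498.

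Guide numbers recur across lines, but same-numbered libraries did not deviate together (correlations between lines -0.235 to 0.302), so the numbers were not used as pairs. A replicate block on guide number called 0 collagen genes in each genotype comparison and 24, 24, 29, 21 and 32 in the line comparisons, and changed no call.

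Each line had 1 control library, so the spread between controls was not measured. Low genes were limited by depth: a level below 0.0691 to 0.128 CPM was not distinguished from 0.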
